A study of Mus musculus with 8 samples.

Results

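Arsenite binds thiol groups of proteins and oxidises the cell, and mammalian cells answer with a small number of well-known gene programmes. HSF1 drives the cytosolic chaperones, NRF2 drives genes of glutathione and thioredoxin metabolism, MTF1 drives the metallothioneins, and ATF4 drives amino acid transport and synthesis genes once translation has been curbed by phosphorylated eIF2α. Transcription of most other genes, translation and the cell cycle are held back during the stress and have to be resumed after it, so the hours after arsenite is removed hold both the late output of the stress programmes and the return of ordinary expression. The 3′ ends of mRNAs can change over the same period, since most mouse genes have several polyadenylation sites (PASs), in the 3′-most exon, in introns or in internal exons.

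The comparison here is between NIH3T3 cells at the end of arsenite (AS) and the same line after 4 h of recovery (RC4). NIH3T3 is an established line of mouse embryonic fibroblasts, and the cells of all conditions were cultured in DMEM with calf serum and are labelled proliferating. AS cells were kept in 250 μM sodium arsenite for 1 h, and RC4 cells received that treatment, were washed and were then kept for 4 h in normal medium without arsenite. Nontreated cells (NT) and cells after 8 h of recovery (RC8) are given beside them as levels only. QuantSeq REV libraries of the 4 conditions also exist and were not used here. Each condition is given by 1 QuantSeq FWD library of total RNA, a protocol that sequences the 3′ part of polyadenylated transcripts. There is thus no replicate and no test between conditions, and intervals cover counting error only. The genes compared were the 9940 listed for both AS and RC4, of 10690 genes listed for at least 1 treated library, and the PASs were the 16894 listed in both PAS tables, of 21906 in the whole series, counted per gene. In bulk libraries, a change in the number of cells that express a gene and a change in its RNA per cell cannot be told apart.

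Depth on genes was 22441452 reads in AS and 22894524 in RC4, and the median shared gene had 711 and 635 reads. Levels are given as RPM, a gene's reads per 1000000 reads on all genes of the library. A change is log2 of the RC4 level over the AS level after subtracting the median change of all 9940 genes. That median was −0.22 (95% order-statistic interval −0.23 to −0.20), so a gene with no change in RPM sits at 0.22 on this scale. Folds are on the same centred scale, relative to the median gene, and so are not the ratios of the printed RPM. All 10 fibroblast markers were listed, and their summed level was 15825 RPM in AS and 12051 in RC4. None of the markers of epithelial, endothelial, leukocyte or muscle cells was listed for both, and of 3 neuronal markers only Tubb3 was, at 2.32 RPM in AS and 11.01 in RC4. The study's methods kept genes with 50 or more mapped reads, without saying in which library. The lowest count of a shared gene was 50 reads in AS and 50 in RC4. The stress genes Hspa1a, Fos, Atf3 and Gdf15 are not listed for AS, RC4 or RC8, and why was not tested.

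After 4 h of recovery, 921 genes were at least 2-fold higher than at the end of arsenite, or 9.27% of the 9940, and 624 genes were at least 2-fold lower, or 6.28%. The other 8395 genes lay within 2-fold. Changes of at least 4-fold were seen in 119 genes upward and 50 downward, and of at least 8-fold in 17 and 6. The middle 50% of genes lay between −0.40 and 0.40. The values nearest the 2-fold limit were 0.9999 outside and 1.002 inside on the upper side, and −0.999 and −1.0009 on the lower side. The higher genes held 5.84% of all reads in AS and 15.6% in RC4, and the lower genes 4.40% and 1.35%.

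Levels in the other libraries put these changes in context. Among higher genes that were also listed for RC8, the median level was 29.7 RPM in NT, 19.9 in AS, 49.0 at RC4 and 36.7 at RC8. Among lower genes it was 29.4, 30.1, 9.78 and 24.2. By their medians, the lower genes stood at similar levels in NT and AS, and RC8 was nearer to these than RC4. Both groups were chosen by their change between AS and RC4, so the distance between their AS and RC4 medians was set by that choice. The choice also favours NT and RC8 medians that lie between those of AS and RC4. How much of these courses comes from the choice was not tested.

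**Figure D1:**
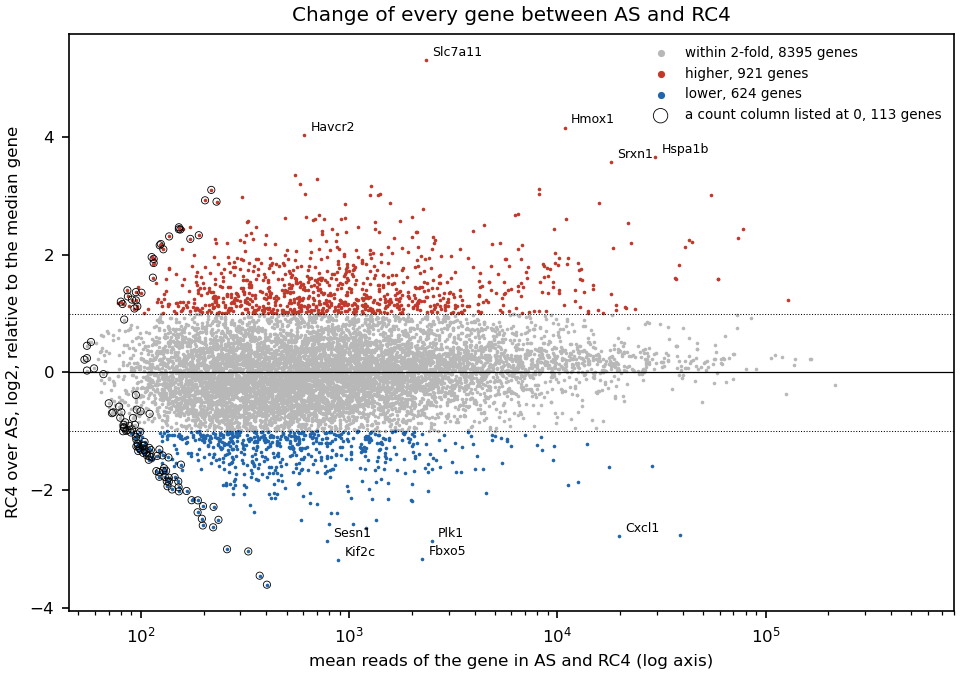
Change of each of the 9940 genes between AS and RC4 (log2, relative to the median gene) against its mean reads in the 2 libraries on a log axis, with dotted lines at 2-fold. Red points are the 921 higher genes, blue points the 624 lower genes, and circles mark the 113 genes with a count column listed at 0, which line up at the low edge of the plot.

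The counts of each library were deposited in 2 columns, and 34 genes of AS and 86 of RC4 have one column at 0 although the other holds 50 to 77 reads. In such genes the sum may understate the level, which touches 58 of the 624 lower genes and 26 of the 921 higher ones. With each such column set equal to the other, Cdca5 would be at −2.61 instead of −3.61, Atoh8 at −2.46 instead of −3.46, and Arrdc4 at 2.102 instead of 3.10. Gpr180, Gypc and Sox12, also among the 12 lowest changes, would be at −2.04, −2.01 and −1.63. Genes described below have reads in both columns of both libraries unless stated otherwise.

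The genes with the highest changes were led by redox and heat shock genes. Slc7a11, the subunit of the cystine importer that feeds glutathione synthesis, had 6.33 RPM in NT, 5.84 in AS, 199 at RC4 and 49.9 at RC8. It was thus flat through arsenite. Relative to the median gene it was 39.7-fold higher at RC4 than in AS (log2 5.31, counting interval 5.06 to 5.57), the highest of the named changes. Hmox1, which encodes heme oxygenase 1, had 27.6, 57.8, 888 and 101, and was 17.9-fold higher in RC4 than in AS (log2 4.16, 4.08 to 4.24). Srxn1, the sulfiredoxin that repairs over-oxidised peroxiredoxins, had 148, 140.5, 1434 and 355, and was 11.9-fold higher. Hspa1b, an inducible HSP70, had 42.3, 218, 2369 and 90.4, and was 12.7-fold higher, a value that is uncertain because its copy Hspa1a has a near-identical sequence. Of these 4 genes, Hmox1 and Hspa1b were above NT before arsenite was removed, while Slc7a11 and Srxn1 were close to their NT levels.

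The remaining genes at this end have other roles. Havcr2, which encodes the immune receptor TIM-3, had 4.07 RPM in NT, 3.52 in AS, 49.8 at RC4 and 19.4 at RC8. The Notch ligand gene Jag1 had 6.15, 4.86, 43.0 and 10.7, and Mmp13, a collagenase gene, had 6.91, 5.70, 45.3 and 27.7. Procr, which encodes the protein C receptor, had 77.3, 84.4, 626 and 326, and Ggct, of glutathione breakdown, had 17.6, 15.3, 107 and 79.7. Hgsnat, a lysosomal acetyltransferase gene, was at 12.7 in AS, 98.8 at RC4 and 102 at RC8, so that it had not come down by 8 h. Dgkh, a diacylglycerol kinase gene, was at 17.5 in NT and 6.55 in AS, its lowest level, before 55.1 in RC4. Xntrpc had 6.02, 6.68, 46.9 and 5.70.

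At the other end stood genes of cell division and chemokine genes. Kif2c, a kinesin that trims microtubules at kinetochores, had 69.9 RPM in NT, 72.0 in AS, 6.77 at RC4 and 44.0 at RC8. Relative to the median gene it was 9.13-fold lower in RC4 than in AS (log2 −3.19, −3.44 to −2.95). Fbxo5, an inhibitor of the anaphase-promoting complex, had 134, 182, 17.3 and 120.2, and was 9.01-fold lower. Plk1, the mitotic kinase, had 184, 198, 23.5 and 169 (7.26-fold lower), and Ccne1, the cyclin of the G1 to S transition, had 85.2, 93.9, 13.0 and 105 (6.22-fold lower). All 4 were at or above their NT levels at the end of arsenite, low only at RC4, and nearer to NT again at RC8. The next lowest cell division genes were Ckap2l and Fam83d, both of spindle proteins, at −2.58 and −2.57, and Tcf19 was at −2.40.

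A different course was seen for Cxcl1 and Cxcl5, neutrophil-attracting chemokine genes. Cxcl1 had 1254 RPM in NT, 1569.6 in AS, 196 at RC4 and 351 at RC8 (6.90-fold lower in RC4 than in AS), and Cxcl5 had 3601, 3067, 390 and 830.0 (6.76-fold). At 8 h both were still well below NT. Sesn1, a sestrin gene, had 64.5, 62.1, 7.29 and 19.5, and Medag, an adipogenesis-associated gene, had 45.6, 45.1, 6.81 and 21.7. Gas1, a growth arrest gene, was at 196 in NT and already lower in AS at 103, and it was at 15.6 at RC4 and 30.8 at RC8.

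**Figure D2:**
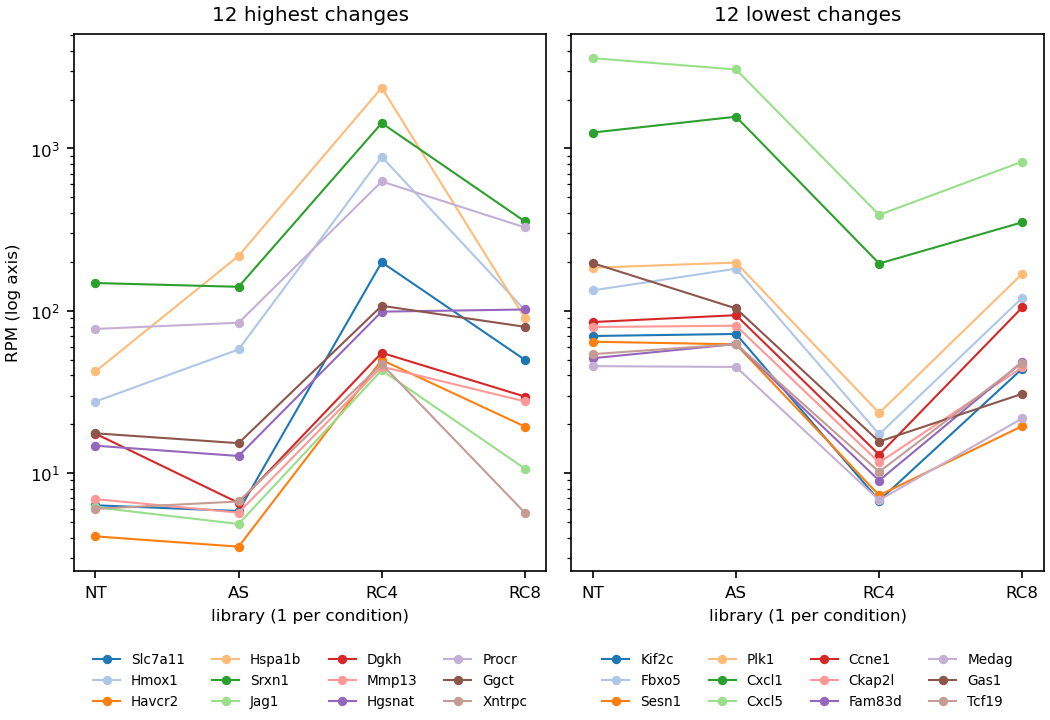
RPM (log axis) in the NT, AS, RC4 and RC8 libraries for the 12 genes with the highest changes (left) and the 12 with the lowest changes (right) between AS and RC4, among genes with reads in both count columns. Each point is 1 library, and the lines only join points of a gene. The genes were chosen by this change, so levels at RC4 stand apart from AS in every gene. The cell division genes are nearer to their AS level in RC8 than in RC4.

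To see which programmes these genes belong to, 30 lists with 844 distinct measured genes were followed. Of the lists, 17 had a median above 0, and the highest medians belonged to the metallothionein, heat shock, Dusp and NRF2 lists, the lowest to the mitosis, chemokine, cholesterol and SR protein lists. The lists describe these 2 libraries and were not tested. Of all genes 9.27% were at least 2-fold higher and 6.28% at least 2-fold lower, the shares to set beside each list's counts.

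**Figure D3:**
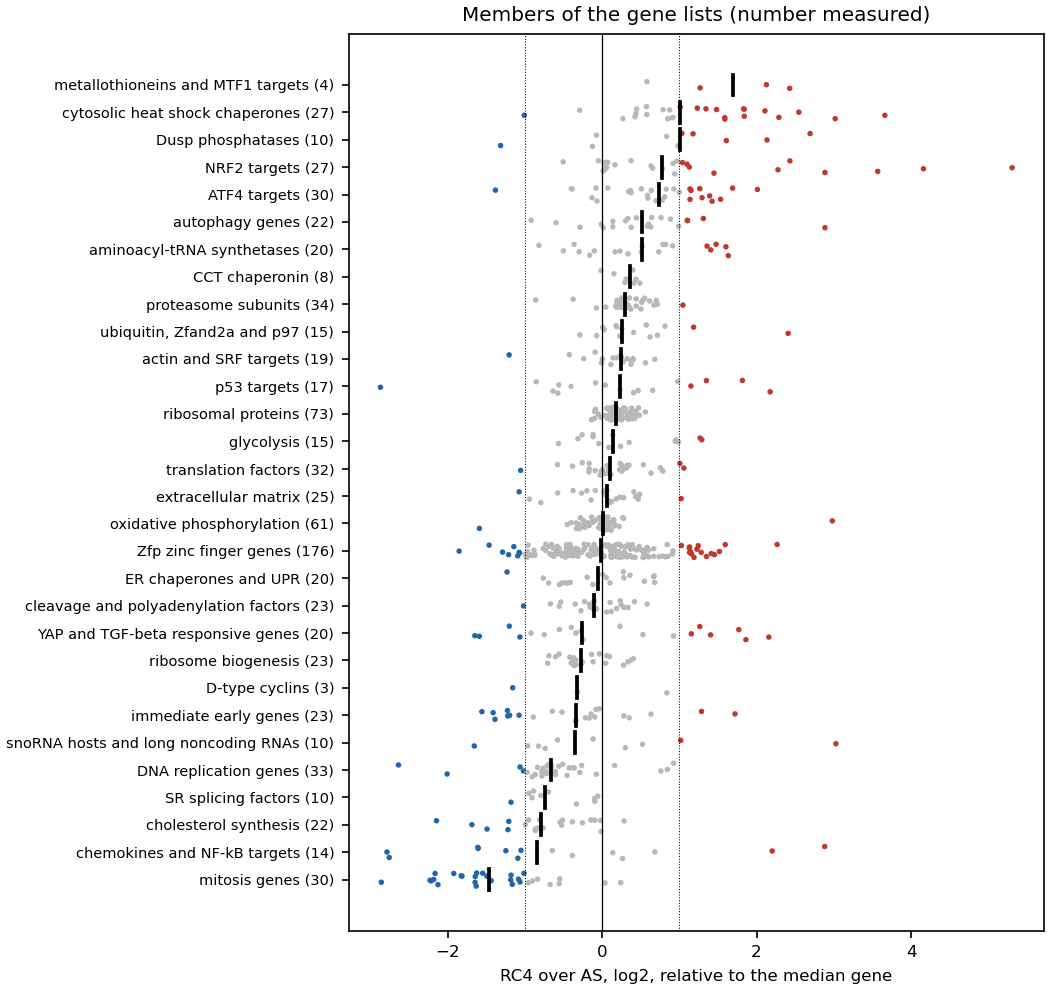
Change between AS and RC4 (log2, relative to the median gene) of every measured member of the 30 lists, with the number measured in parentheses, a black bar at the list's median and dotted lines at 2-fold. Red and blue points are members at least 2-fold higher or lower. The metallothionein list has the highest median at 1.70 and the mitosis list the lowest at −1.46.

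Chaperones of the cytosol were higher in many members. Of 27 measured, 14 were at least 2-fold higher, or 51.9% beside 9.27% of all genes, and 1 was at least 2-fold lower, with a median of 1.01. Hsph1, an HSP110 exchange factor, had 616 RPM in NT, 602 in AS, 4192 at RC4 and 853 at RC8 (log2 3.02). The HSP90 gene Hsp90aa1 had 977, 1244, 5226 and 2282 (log2 2.29), and its constitutive relative Hsp90ab1 had 3816, 3711, 7492 and 4319 (1.23). The HSP40 gene Dnajb1 was at 72.3 in NT, 239 in AS, 735 at RC4 and 103 at RC8, and Dnaja1 at 331, 346, 1281 and 451. Cryab, a small heat shock protein gene, had 299, 317, 1591 and 1343 and thus remained high at 8 h, unlike Hsph1 and Hspa1b. The mitochondrial pair Hspd1 and Hspe1 was at 1.83 and 1.48, Bag3, Hspb8 and Hspa8 at 1.84, 1.59 and 1.59, and Chordc1 and Ahsa1 at 1.34 and 1.01. Among the members given here with 4 levels, the AS level stood well above NT only in Dnajb1 and Hspa1b. Hsf1, the factor that drives the programme, was the member past the limit downward, at 17.7 in AS and 7.56 in RC4 (−1.01), and Hspb6 was at −0.29.

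Windows of 30 bases around the heat shock element in promoters of 3 of these genes show the sequence that HSF1 recognises, in GRCm38.p6 from RefSeq and on the strand of the gene. Capitals mark the element, searched on both strands as GAA, 2 bases, TTC, 2 bases, GAA, in windows from 250 bases before to 50 after each gene start. It was found in a promoter of 5 of the 21 measured chaperone genes with a promoter window (Chordc1, Dnajb6, Hspd1, Hspe1 and Hsph1). Of the 7389 measured genes with a window, 0.555% had it, and of 32851 single promoters 198 or 0.603% hold it.
Hsph1, chr5:149636287-149636316, minus strand: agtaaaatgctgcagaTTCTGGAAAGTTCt
Hspd1, chr1:55088050-55088079, minus strand: gccttccgGAAGGTTCTAGAAcggaccgtg
Chordc1, chr9:18292255-18292284, plus strand: tgcaaccgGAACGTTCGGGAAaattcctga
A match is a description of the letters and not of binding. Hspd1 and Hspe1 lie head to head and share the middle promoter.

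The CCT chaperonin, which folds actin and tubulin, was more even. Its 8 measured subunit genes ranged from −0.01 (Cct3) to 0.49 (Cct8) with a median of 0.36 and none past 2-fold. Chaperones of the endoplasmic reticulum did not move with those of the cytosol. The 20 measured genes of that list had a median of −0.05, with none at least 2-fold higher and 1 at least 2-fold lower, Sdf2l1, at 20.1 RPM in AS and 7.34 in RC4 (−1.23). Hspa5, which encodes BiP, had 1648 in NT, 1849 in AS, 1924 at RC4 and 1104 at RC8 (0.28). Manf was at −0.76, Derl1 at 0.68 and Dnajb9 at 0.67.

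Genes of protein breakdown were at least 2-fold higher in a few members, which were 13.3% of the ubiquitin, 2.94% of the proteasome and 18.2% of the autophagy list, beside 9.27% of all genes. In the list of ubiquitin, Zfand2a and p97 cofactor genes, 2 of 15 were at least 2-fold higher, Zfand2a and Ubxn4, and the median was 0.26. Zfand2a, an arsenite-inducible proteasome-associated factor, had 32.3 RPM in NT, 62.1 in AS, 283 at RC4 and 90.8 at RC8 (log2 2.41). The polyubiquitin gene Ubb had 722, 921, 1391 and 341 RPM in the 4 libraries (0.81), and was thus below its NT level at RC8. The 34 proteasome subunit genes had a median of 0.29, from −0.86 (Psmd5) to 1.05 (Psmd13), the only one past 2-fold. Of 22 autophagy genes, 4 were at least 2-fold higher and none lower, with a median of 0.52. These were Sqstm1 and Map1lc3b, which encode the receptor p62 and an LC3 protein, at 2.89 and 1.31, with Wipi2 and Atg14 at 1.106 and 1.104. Sqstm1, which is also an NRF2 target, had 159, 189, 1199 and 581 RPM in NT, AS, RC4 and RC8.

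NRF2 targets had 10 of 27 measured members at least 2-fold higher, or 37.0% beside 9.27% of all genes. None was at least 2-fold lower, and the median was 0.78. Besides Slc7a11, Hmox1 and Srxn1, Txnrd1, the cytosolic thioredoxin reductase gene, had 165 RPM in NT, 149 in AS, 693 at RC4 and 333 at RC8 (log2 2.43). Gclc, of the catalytic subunit of glutathione synthesis, had 39.7, 28.0, 117 and 35.6 (2.28). Its partner Gclm did not show this, with 1105, 1233, 1086 and 1152 (0.04). The ferritin light chain gene Ftl1 was at 1.099, from 659 in AS to 1213 at RC4 and 1341 at RC8, and the heavy chain gene Fth1 at 0.92. Mafg, Abcc4 and Gsta4 were at 1.13, 1.45 and 1.04. Nqo1, often used as a marker of NRF2 activity, had 103, 116, 104 and 181 (0.06), so its level was higher only at RC8. Keap1, the NRF2 inhibitor, was the lowest member at −0.50, followed by Gstm1 at −0.05.

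An antioxidant response element, searched as TGACNNNGC on both strands, was found in a promoter of 9 of the 22 measured NRF2 targets with a promoter window, beside 17.3% of the 7389 measured genes with one and 12.4% of all single promoters. The elements of Srxn1 and Txnrd1, and of Gclm, which was at 0.04, are in capitals here.
Srxn1, chr2:152105542-152105571, plus strand: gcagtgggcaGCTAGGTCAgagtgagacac
Txnrd1, chr10:82859104-82859133, plus strand: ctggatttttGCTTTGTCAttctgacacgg
Gclm, chr3:122245413-122245442, plus strand: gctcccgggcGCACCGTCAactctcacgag
All 3 are matches on the opposite strand.

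Metallothioneins bind arsenic, zinc and cadmium through their cysteines. Mt1 had 339 RPM in NT, 757 in AS, 2842 at RC4 and 1476 at RC8 (log2 2.13), and Mt2 had 510.1, 1211, 5607 and 1905 (2.43). Both were thus above NT at the end of arsenite, highest at RC4 and still above NT at 8 h. Slc30a1, the zinc exporter gene, had 36.3, 59.4, 123 and 24.2 (1.27), and Mtf1 itself was at 0.58, the one member of 4 within 2-fold.

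ATF4 targets split. Of 30 measured, 10 were at least 2-fold higher, or 33.3% beside 9.27% of all genes. At least 2-fold lower was 1, or 3.33% beside 6.28%, and the median was 0.74. Trib3, a pseudokinase gene, had 13.6 RPM in NT, 18.6 in AS, 64.5 at RC4 and 25.5 at RC8 (log2 2.01). The amino acid transporter genes Slc7a5 and Slc7a1 were at 1.69 and 1.53, the tRNA exporter gene Xpot at 1.42, and the serine, asparagine and cysteine synthesis genes Psph, Asns and Cth at 1.39, 1.29 and 1.14. Eif4ebp1, Nupr1 and Aldh1l2 were at 1.27, 1.15 and 1.14. The regulators themselves stood differently. Atf4 had 428 RPM in NT, 660 in AS, 433 at RC4 and 239 at RC8 (−0.39), and Ddit3, which encodes CHOP, had 40.7, 128, 104 and 49.4 (−0.08). Ppp1r15a, which directs dephosphorylation of eIF2α, had 11.9, 55.8, 45.8 and 19.7 (−0.07). These 3 were high by the end of arsenite, whereas Asns was at 47.4 in NT, 54.4 in AS, 115 at RC4 and 96.5 at RC8. Cebpb was at 162 in AS and 53.5 in RC4 (−1.38).

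Many aminoacyl-tRNA synthetase genes are ATF4 targets as well. Of the 20, 5 were at least 2-fold higher, or 25% beside 9.27% of all genes. None was at least 2-fold lower, and the median was 0.51. Aars, Sars, Nars, Rars and Gars were at 1.63, 1.60, 1.48, 1.41 and 1.36. Aars had 64.4 RPM in NT, 64.5 in AS, 172 at RC4 and 135 at RC8. Farsa and Vars were the lowest, at −0.82 and −0.50. The ATF4 element TGATGNAA, searched on both strands, was found in a promoter of 6 of 26 measured ATF4 targets with a window, beside 2.42% of the measured genes with one and 3.97% of all single promoters, and it also stands before Slc7a11.
Slc7a11, chr3:50443661-50443690, minus strand: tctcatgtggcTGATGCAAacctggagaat
Trib3, chr2:152344028-152344057, minus strand: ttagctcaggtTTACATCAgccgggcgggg
Promoter shares over the higher and lower genes are not given, because only 74.3% of the 9940 genes matched a promoter window, too few for that comparison.

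Immediate early genes, the transcription factors and regulators switched on within minutes of a stimulus, went the other way. Of 23 measured, 7 were at least 2-fold lower, or 30.4% beside 6.28% of all genes. At least 2-fold higher were 2, or 8.70% beside 9.27%, and the median was −0.34. Egr1 had 146 RPM in NT, 893 in AS, 329 at RC4 and 119 at RC8 (log2 −1.22). Jun had 168, 515, 189 and 151 (−1.23), and Ier2 had 44.8, 144, 47.4 and 60.1 (−1.39). Nr4a1 had 104, 165, 48.1 and 39.5 (−1.56), and Btg2 had 23.5, 57.6, 18.6 and 11.96 (−1.41). Csrnp1 and Zfp36 were at −1.20 and −1.08. In each of these 7 genes the AS library held the highest of the 4 levels. They were chosen for an AS level above RC4, which favours this. Maff, a small MAF factor gene, went from 22.9 in AS to 64.8 in RC4 (1.72), and Klf9 from 66.1 to 139 (1.29).

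The Dusp phosphatases switch off MAP kinases, and their genes separated by member. Dusp1, itself an immediate early gene, had 244 RPM in NT, 554 in AS, 191 at RC4 and 118 at RC8 (log2 −1.32). Dusp4 had 94.9, 85.9, 478 and 190.0 (2.69), Dusp5 had 26.3, 39.4, 149 and 114 (2.14), and Dusp16 had 22.7, 15.8, 41.5 and 22.1 (1.61). With Dusp3 at 1.18 and Dusp10 at 1.03, 5 of the 10 measured were at least 2-fold higher and 1 was lower. These were 50% and 10%, beside 9.27% and 6.28% of all genes. Dusp14 and Dusp7 were at −0.12 and −0.07.

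Chemokine and NF-κB target genes were at least 2-fold lower in 7 of 14 measured, or 50% beside 6.28% of all genes. At least 2-fold higher were 2, or 14.3% beside 9.27%, and the median was −0.85. Besides Cxcl1 and Cxcl5, Ccl2 had 1519 RPM in NT, 1227 in AS, 346 at RC4 and 380.5 at RC8 (log2 −1.61). Ccl7 was at −1.25 and Vcam1, an adhesion receptor gene, at −1.61. Nfkbia, which encodes the NF-κB inhibitor IκBα, had 404, 526, 212 and 262 (−1.09), and Nfkbiz was at −1.05. The exceptions were Ptgs2, which encodes the prostaglandin synthase COX-2, with 390.0, 401, 1586 and 521 (2.202), and the cytokine gene Il11, with 21.3, 18.8, 119 and 37.6 (2.88). Csf1 was at 0.68.

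Among cell cycle genes, those of mitosis had the lowest median of all lists. Of 30 measured mitosis genes, 22 were at least 2-fold lower in RC4 and none was at least 2-fold higher, or 73.3% beside 6.28% of all genes, with a median of −1.46. Besides Plk1, Kif22 and Bub1b were at −2.23 and −2.21, Ccna2 at −2.18 and Ccnb1 at −2.16. Ccnb1, the cyclin of mitotic entry, had 126 RPM in NT, 148 in AS, 28.3 at RC4 and 122 at RC8, and Cdk1, its kinase, had 659, 814, 185 and 628 (−1.92). The highest members were Cenpf and Tpx2, at 0.04 and 0.24, and both were close to no change. Aurkb, Cdc25c and Ttk of this list are listed for AS and RC8 and not for RC4, and Aurkb had 849 reads in AS and 481 in RC8. Espl1 and Melk, of the same process but outside the list, are also missing for RC4. They had 612 and 595 reads in AS and 647 and 334 in RC8. No change can be given for these genes.

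Genes of DNA replication were lower by less. Of 33 measured, 4 were at least 2-fold lower, or 12.1% beside 6.28% of all genes. None was at least 2-fold higher, and the median was −0.66. Besides Ccne1, the origin licensing gene Cdc6 had 56.5 RPM in NT, 72.1 in AS, 15.4 at RC4 and 76.9 at RC8 (log2 −2.01), and the clamp loader genes Rfc3 and Rfc5 were at −1.06 and −1.02. Mcm4, a helicase subunit gene, had 580.2, 567, 546 and 575 (0.16), and Pole, of a DNA polymerase subunit, was the highest at 0.92. The D-type cyclins differed from each other, with Ccnd3 at −1.16 (367 in AS, 141 in RC4), Ccnd1 at −0.32 and Ccnd2 at 0.84.

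Targets of p53 showed both directions, with 4 of 17 at least 2-fold higher, 1 lower and a median of 0.23. These were 23.5% and 5.88%, beside 9.27% and 6.28% of all genes. Mdm2, which encodes the ubiquitin ligase of p53, had 206 RPM in NT, 187 in AS, 567 at RC4 and 261 at RC8 (log2 1.82). Cdkn1a, which encodes the CDK inhibitor p21, had 119.9, 140.3, 307.5 and 207 (1.35). Trp53inp1 and Plk2 were at 2.18 and 1.15, whereas Sesn1 and Gtse1 were lowest at −2.87 and −0.85.

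Cholesterol synthesis genes were lower. Of 22 measured, 5 were at least 2-fold lower, or 22.7% beside 6.28% of all genes. None was at least 2-fold higher, and the median was −0.79. Mvd had 106 RPM in NT, 114 in AS, 22.1 at RC4 and 36.1 at RC8 (log2 −2.15). Mvk, Insig1 and Fdft1 were at −1.49, −1.22 and −1.21. Cyp51 was the highest member at 0.28.

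Growth factor and matrix genes of fibroblasts divided within their lists. Among 20 genes that respond to YAP or TGF-β, 6 were at least 2-fold higher and 4 lower. These were 30% and 20%, beside 9.27% and 6.28% of all genes. The higher ones included Ctgf, with 103 RPM in NT, 123 in AS, 472 at RC4 and 329 at RC8 (log2 2.16) and Skil at 1.77. Amotl1, Smad7 and Ski were at 1.40, 1.26 and 1.16. The lower ones were Id1, Id3 and Id2, inhibitors of differentiation, at −1.65, −1.59 and −1.20, and Thbs1 at −1.06. Id3 had 1068, 1960.4, 559 and 1480 in NT, AS, RC4 and RC8. The median of this list was −0.26 and was above 0 when genes under 200 reads were left out (0.20). Of 25 matrix genes, 1 was past the limit each way, Timp1 at 1.024 and Col3a1 at −1.07, and of 19 actin and SRF targets only Filip1l was, at −1.20.

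Housekeeping lists moved little. The 73 ribosomal protein genes lay between −0.14 (Rpl17) and 0.56 (Rpl13) with none past 2-fold. The 61 oxidative phosphorylation genes had 1 past 2-fold each way, Sdhd at −1.59 (52.9 RPM in AS, 15.1 in RC4) and Ndufb2 at 2.98 (3.43 in AS, 23.3 at RC4 and 2.91 at RC8). Of 15 glycolysis genes, the phosphofructokinase-related genes Pfkp and Pfkfb3 were at 1.29 and 1.27, and of 32 translation factor genes Eif4g3, Eif2s2 and Eif4a2 were at 1.06, 1.01 and −1.06. The medians of these 4 lists were 0.18, 0.01, 0.14 and 0.11, and all 4 turned negative without centring, as did that of the matrix genes, 0.06. Ribosome biogenesis genes, 23 in all, had a median of −0.27 with none past 2-fold.

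Genes of RNA processing were mostly within 2-fold. Of 10 measured SR splicing factor genes, 1 was at least 2-fold lower and none higher, and the median was −0.74 with all 10 below 0. Srsf5 had 161 RPM in NT, 124 in AS, 47.0 at RC4 and 132 at RC8 (log2 −1.18), and Srsf3 had 746, 944, 420.0 and 979 (−0.95). Both had higher levels again at 8 h, and Srsf1 and Srsf10 were nearest the median gene at −0.09 and −0.06. The 23 genes of cleavage and polyadenylation factors had a median of −0.10, from −1.02 for Cstf1 (58.1 in AS, 24.6 in RC4) to 0.58 for Cpsf2. Among 10 long noncoding RNAs and snoRNA hosts, Neat1, the scaffold of paraspeckles, had 276, 89.6, 628 and 475 (3.03), and Meg3 was at 1.018. Snhg3 had 66.9, 118, 32.2 and 36.3 (−1.66), and Snhg5 was at −0.96.

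Zinc finger genes of the Zfp family had a median near 0 (−0.02, and 0.10 when genes under 200 reads were left out), and 16 of 176 measured were at least 2-fold higher and 8 lower. These shares of 9.09% and 4.55% were near those of all genes. Zfp469 had 13.4 RPM in NT, 3.88 in AS, 16.0 at RC4 and 16.0 at RC8 (log2 2.27), and Zfp365 and Zfp451 were at 1.59 and 1.52. Zfp451 had 84.4, 41.5, 102 and 81.9, a pattern of a low AS level between similar NT and RC8 levels. Of the lowest members, Zfp61 (−1.85) has an RC4 count column at 0, and Zfp950 was at −1.46.

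The higher genes were long. Their median span from first to last annotated base in GENCODE vM1 was 47.2 kb, beside 17.5 kb for the lower genes and 23.1 kb for all genes with a span. Of genes under 5 kb, 4.69% were at least 2-fold higher and 5.98% lower, and of genes over 100 kb 18.3% were higher and 3.02% lower. Median levels of the longest genes were 27.9 RPM in NT, 20.5 in AS, 21.9 at RC4 and 25.7 at RC8, and those of genes under 5 kb were 49.5, 52.1, 39.97 and 48.2. The longest genes were thus lower in AS than in NT by their medians. The shortest genes were lowest in RC4, but so were all genes also listed for RC8. Their medians were 35.6 RPM in NT, 32.0 in AS, 28.1 at RC4 and 35.7 at RC8.

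**Figure D4:**
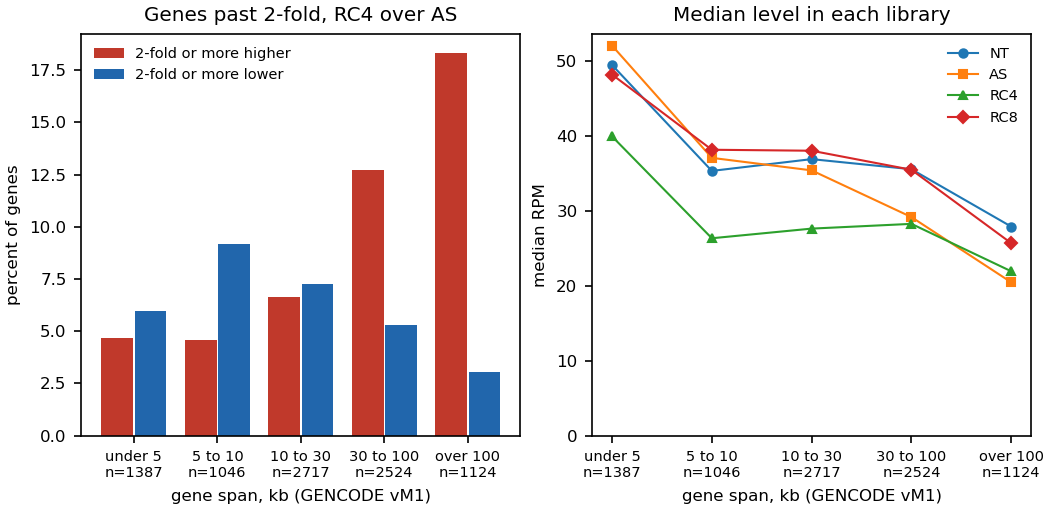
Left, percent of genes at least 2-fold higher or lower in RC4 than in AS, by gene span in kb, with the number of genes under each group. Right, median RPM of the same genes in each library. The share of higher genes goes from 4.69% under 5 kb to 18.3% over 100 kb.

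The 3′ ends of the higher genes more often held an AU-rich element. TATTTAT, a core of elements that recruit decay factors, was present in the 500 bases before the main PAS of the 3′-most exon in 20.3% of higher genes (Wilson interval 17.8 to 23.2), 11.1% of lower genes (8.86 to 13.9) and 12.4% of all genes. The same stretches were also richer in A and T in the higher genes, with a median of 59.2%, beside 53.6% in lower genes and 55.8% in all, and the part of base composition in the motif count was not tested. Of higher genes 52.7% had more than 1 PAS in both tables, of lower genes 37.5% and of all genes 48.3%. The part of read depth in these shares was not tested.

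PAS use also differed between the end of arsenite and 4 h of recovery. A PAS share is the percent of a gene's reads assigned to that PAS. Among 12630 PASs of 5422 genes with more than 1 PAS, 1074 gained at least 10 percentage points in RC4, or 8.5%, and 1286 lost at least 10 points, or 10.2%. The PAS list of a gene can differ between the AS and RC4 tables, as it does in 1797 of the 9940 genes. There the shares of the same NT library, which each table also gives, differed by at least 10 points between tables in 14.4% of PASs, while in genes with equal lists no NT share differed by more than 7.30 points. In the 3879 genes with equal lists of more than 1 PAS, 716 PASs gained and 740 lost at least 10 points, so most of the surplus of losses came from genes with unequal lists.

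Intronic PASs gained more often than they lost. Of 1353 intronic PASs, 204 (15.1%) gained at least 10 points and 114 (8.43%) lost, and with equal lists 152 (15.2%) gained and 62 (6.21%) lost of 998. In the 3′-most exon, 823 of 10638 PASs gained (7.74%) and 1130 lost (10.6%), and with equal lists 528 and 651 of 8200. The share of all reads at PASs upstream of the 3′-most exon was 8.32% in AS and 9.39% in RC4, beside 8.22% in NT by the AS table and 8.48% in RC8. Introns held 5.93% of reads in AS and 6.22% in RC4, internal exons 1.89% and 2.42%, and 5′-most exons 0.5001% and 0.749%.

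The relative use of 2 PASs is given by RED, log2 of distal over proximal reads in RC4 minus the same in AS, so that a negative value means relatively more proximal reads in RC4. For PASs of the 3′-most exon (REDu) the median of 3880 genes was −0.10 (−0.12 to −0.07), and 55.3% of genes were below 0. The value depended on how far apart the PASs lie. The median was 0.08 for 1486 pairs under 300 nt apart, −0.17 for 1394 pairs of 300 to 1500 nt and −0.30 for 1000 pairs of at least 1500 nt. QuantSeq FWD reads need not reach the PAS, so shares at close PASs rest on the authors' model of read distance. How well it separates close pairs was not tested here. For an upstream PAS against one in the 3′-most exon (REDi) the median of 1127 genes was −0.23 (−0.29 to −0.17), with 59.7% below 0. In genes with equal PAS lists REDu and REDi had medians of −0.11 and −0.23.

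PAS use was also described by the change in level of the gene. REDu had medians of −0.08 in higher genes and −0.01 in lower genes, and in both the interval spanned 0, from −0.18 to 0.03 and from −0.24 to 0.12. REDi was −0.12 (−0.34 to 0.29) in 96 higher genes and −0.62 (−0.93 to −0.10) in 45 lower genes, beside −0.24 in 986 genes within 2-fold. These intervals overlap, and a relation between PAS use and level was not tested.

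**Figure D5:**
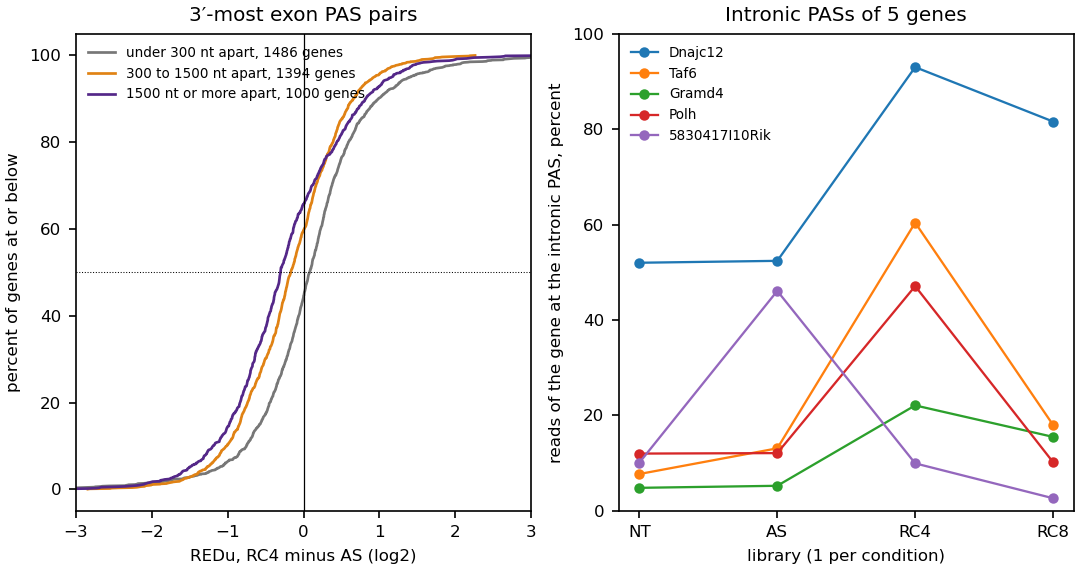
Left, cumulative percent of genes by REDu between AS and RC4 (log2, negative for more proximal reads in RC4), for 3′-most exon PAS pairs under 300 nt, 300 to 1500 nt and at least 1500 nt apart. Right, percent of the gene's reads at an intronic PAS in each library for the 5 genes with equal PAS lists among those with the most extreme REDi. The curve of the most distant pairs lies to the left of 0 at the 50% line, and Taf6, Polh, Dnajc12 and Gramd4 peak in RC4 while 5830417I10Rik peaks in AS.

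The lowest REDi values with equal PAS lists came from Dnajc12, Taf6, Gramd4 and Polh. Taf6, which encodes a TFIID subunit, had 7.72% of its reads at an intronic PAS in NT, 13.1% in AS, 60.4% at RC4 and 18% at RC8 (REDi −3.34). Polh, of the translesion polymerase eta, had 12%, 12.1%, 47.1% and 10.2% at its intronic PAS (−2.73). Dnajc12 had 52.0%, 52.4%, 93.0% and 81.6% (−3.60), and Gramd4 had 4.82%, 5.25%, 22.1% and 15.5% (−2.86). In all 4 the intronic share was highest in RC4, and in Polh, Dnajc12 and Gramd4 it was nearly the same in NT and AS. The opposite course was seen in 5830417I10Rik, where the intronic PAS held 10.1% in NT, 46.1% in AS, 9.95% at RC4 and 2.64% at RC8 (2.92).

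The last 30 bases up to these PASs, in NCBIM37 (mm9) on the strand of the gene, show what stands before each site. Capitals mark the poly(A) signal AATAAA where it is present.
Taf6 intron, chr5:138627611-138627640, minus strand: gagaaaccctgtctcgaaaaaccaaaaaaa
Taf6 3′-most exon, chr5:138619848-138619877, minus strand: agttcctcagAATAAAagttggatttgtaa
Polh intron, chr17:46322110-46322139, minus strand: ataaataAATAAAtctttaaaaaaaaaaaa
Polh 3′-most exon, chr17:46308304-46308333, minus strand: acattgagacAATAAAaatgtactctttga
Gramd4 intron, chr15:85947968-85947997, plus strand: ctttgaaaccaaaaaaaaaaaaaaaaaaaa
Gramd4 3′-most exon, chr15:85968027-85968056, plus strand: atttAATAAAcctaaaatgctctgtgctga
5830417I10Rik intron, chr3:88603904-88603933, plus strand: tggagagcttcacatgggcagccacagaaa
Dnajc12 intron, chr10:62866284-62866313, plus strand: ttatacagaaaacaataatttgaaaaaaaa
Dnajc12 3′-most exon, chr10:62871460-62871489, plus strand: ggtgtcttgtgatccctacccatacaaaaa
The intronic sites of Taf6, Polh, Gramd4 and Dnajc12 end in runs of A that are encoded in the genome. Of their 3′-most exon sites that of Dnajc12 ends in a run of A as well, and those of Taf6, Polh and Gramd4 do not.

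Such runs were frequent at intronic PASs. At least 8 of the 10 bases up to the PAS were A in 23.3% of all intronic PASs of genes with more than 1 PAS, in 33.8% of those that gained 10 points (Wilson interval 27.7 to 40.6) and in 22.8% of those that lost them (16.1 to 31.3). In the 3′-most exon this was so for 5.99% of PASs. For the 10 bases after the PAS it was so in 5.62% of all intronic PASs, 8.33% of those that gained and 7.02% of those that lost. AATAAA stood in the 40 bases before 56.9% of intronic PASs that gained, 46.5% of those that lost and 43.1% of all, and before 38.6% of all PASs of the 3′-most exon. The authors state that PolyA_DB v3 holds only PASs mapped by 3′READS, and that internal priming does not affect the PASs MAAPER predicts. Priming of the library on genomic runs of A was not tested here.

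The other genes with extreme REDi had unequal PAS lists. Usp16 and Cux1 were at the low end, with Snhg3, Steap3, Trmt10a, Cryzl1 and Rmnd5a at the high end. In Snhg3 the intronic PAS held 50.8% of reads in NT, 82.4% in AS, 52.5% at RC4 and 45.1% at RC8, and in Cux1 4.13%, 6.03%, 18.8% and 8.46%. The NT share of the Usp16 PAS in the 3′-most exon was 36.9% in one table and 11.7% in the other, so its REDi of −3.66 carries a difference between tables.

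Within the 3′-most exon, the genes with equal PAS lists at the high end of REDu are given first. Lrrc58, a leucine-rich repeat gene, had 61.6% of its reads at a proximal PAS in NT, 87.8% in AS, 66.2% at RC4 and 66.5% at RC8, with the distal PAS 5249 nt downstream (REDu 2.59). The decapping gene Dcp2 had 25.2%, 56.1%, 19% and 17.8% at its proximal PAS, 7013 nt before the distal one (2.45). In both the proximal share was highest at the end of arsenite and near or below NT at RC4. Gm15725, a pseudogene inside Lrrc58, uses the same proximal PAS and is not independent of it. Reads of near-identical copies of the pseudogene elsewhere were not separated from this PAS, so the shares of Lrrc58 are uncertain. Mex3d, an RNA-binding protein gene, had 43.3%, 37.5%, 10.8% and 19.1% at the proximal of 2 PASs that lie 160 nt apart (2.36). At this distance the split of reads between them rests on the authors' model of read distance.
Mex3d proximal, chr10:79843260-79843289, minus strand: actttacggAATAAAttttaagaactaaaa
Mex3d distal, chr10:79843100-79843129, minus strand: ttcttAATAAAgttgttttcctatatgtaa
Both Mex3d sites carry AATAAA.

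At the low end of REDu, the genes with equal lists were Gm10073 and the pseudogene Gm16418, both single-exon genes. Gm10073 had 64.4% of reads at its proximal PAS in NT, 48.2% in AS, 85.6% at RC4 and 33.3% at RC8, and Gm16418 had 82.5%, 59.7%, 94.4% and 60.5%. Their PASs are 213 and 125 nt apart, and reads of near-identical copies elsewhere were not separated from them. Sc5d, Nfia, Sppl2a and Cryzl1 at this end and Usp16 and Lsm12 at the high end had unequal lists. For Sc5d, of cholesterol synthesis, the NT share of the proximal PAS was 25.1% in one table and 45.6% in the other, beside 20.5% in AS and 60.1% in RC4.

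Genes listed for 1 of the 2 libraries have no change here and are missing from the counts of higher and lower genes. They were 512 genes of the AS table, with a median of 131 reads in AS, and 141 of the RC4 table, with a median of 133 reads in RC4. Of the 512, 80 had at least 200 reads in AS and 372 were also listed for RC8. Gm6969 had 11489 reads in AS and 10150 in RC8, so absence from the RC4 table need not mean few reads there, and why these genes are absent was not tested. Acot2, an acyl-CoA thioesterase gene, had 533 reads in RC4, 164 in RC8 and 55 in NT, and Plin4, of a lipid droplet protein, had 351, 266 and 51. Klf2, a transcription factor gene, had 734 reads in AS, 602 in RC8 and 305 in NT. These 4 genes, and Aurkb, Espl1 and Melk, were picked after their values were seen.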

How the data were processed

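Total RNA of NIH3T3 cells was sequenced with QuantSeq FWD, 1 library per condition. The authors trimmed reads with bbmap, mapped them to mm9 with STAR 2.5.2a (version as in the submitters' processing notes) and ran MAAPER with PolyA_DB v3, for genes with at least 50 reads and PASs at a proportion of 5%. Each deposited table pairs NT with 1 treated library. The authors deposited raw read counts for each gene, split over 2 columns that were added here, and the fraction of a gene's reads at each PAS, printed as percent. What the 2 columns stand for is not given in the sources used here. The tables also hold the authors' comparisons with NT (P values, RLD and RED scores), which were not used. QuantSeq REV libraries were not analysed here.

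Counts were scaled to RPM, and changes were centred on the median gene. Ratios of counts have exact binomial (Clopper-Pearson) 95% intervals, shares Wilson intervals and medians order-statistic intervals. These cover counting error only (for shares of genes or PASs and for medians, the number of genes or PASs). The scripts were tested on simulated data. TMM factors came from edgeR 4.0.16, used for scaling only. Named genes were the 12 highest and 12 lowest changes among genes with at least 200 reads in the higher library, without Gm and Rik names, the 2 highest and 2 lowest members of each list with members past 2-fold, and the 6 lowest and 6 highest REDu and REDi among genes with at least 200 reads and neither PAS under 5% in AS or RC4. Other members (such as Gclm, Nqo1, Hspa5 and Atf4) were picked for their role after their values were seen. Genes and lists were chosen with earlier results of these data known. RefSeq promoters (GRCm38.p6) matched 7246 genes by symbol and 143 by an older symbol. Alternatives were other scalings, thresholds, filters, single count columns and PAS sets. A few items are not reported here.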

Additional observations from a re-analysis of the deposited data

How the results depend on the processing

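No paired analysis was possible because each condition has 1 QuantSeq FWD library. Without centring, 585 genes were at least 2-fold higher and 1050 lower. With the total taken without the 100 genes with most reads, 647 were higher and 943 lower. With each library divided by its own median gene, 757 were higher and 807 lower. In these scalings, as without centring, more genes were lower than higher, unlike in the main setting. With at least 200 reads in both libraries, 642 were higher and 372 lower. At 1.5-fold, 1787 genes were higher and 1688 lower, and at 3-fold 297 and 148. With the counting interval wholly beyond 2-fold, 360 were lower. The median change before centring was −0.19 over genes with at least 200 reads and −0.0105 with TMM factors. At 20 points 258 PASs gained and 360 lost, at 5 points 2542 and 2829, and with equal PAS lists 740 lost. Over genes with a PAS that changed by 10 points, the median REDu was −0.59 with 57.8% below 0 and the median REDi −0.83 with 67.2% below 0. For pairs at least 300 nt apart the median REDu was −0.22 with 62.0% below 0. The share of reads upstream of the 3′-most exon was 7.68% in AS and 8.97% in RC4 with equal PAS lists, 7.38% and 7.68% as a mean over genes, and 8.34% and 9.41% with at least 200 reads. The cause of these moves was not tested, other than that stricter limits and filters keep fewer genes or PASs. Of 181 named genes past 2-fold, 155 stayed past it without centring, 158 without the 100 genes with most reads, 172 with each library divided by its own median gene and 180 with TMM. Leaving out genes with a count column at 0, or setting it to the other column, was added after seeing the data, and in the latter case 178 of 181 stayed past 2-fold. With 1 library per condition, variation between cultures is not measured at any depth.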
